A study of Mus musculus with 9 samples.

Results

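The 9 genes described here encode parts of the B-cell receptor complex and other proteins of the B lineage. They are Cd79a, Cd79b, Blk, Cd22, Cr2, Ms4a1, Pax5, Ebf1 and Fcrla, and they were chosen by gene name as 9 rows of a table of 54532 genes. RNA-seq values were available for dendritic cells (DCs) sorted from spleens of young adult female mice, in 3 groups of 3 libraries. N-mDCs were mature conventional DCs of normal mice without leukemia. T-mDCs were mature conventional DCs of mice with T-cell acute lymphoblastic leukemia (T-ALL), and T-DCs were CD11c+MHCIIlo cells of mice with T-ALL, which the labels call immature DCs. T-ALL was induced with a retrovirus carrying the intracellular domain of Notch1 and GFP in c-kit+ bone marrow cells, and GFP+ leukemia cells were passed to recipients without irradiation, which therefore kept their own immune cells. The study's methods name C57BL/6J and C57B6.SJL recipients and do not say which gave these libraries. Cells were taken at the late stage of leukemia. For T-DCs, the gating shown by the study left out GFP+ leukemia cells and cells with surface markers of T, B or NK cells. The sources used here give no gate against B cells for N-mDCs or T-mDCs. Nothing in the labels says whether the 3 libraries of a group came from separate mice, so p-values measure the spread between these libraries only.

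The B-cell receptor is a membrane immunoglobulin that signals through the paired chains CD79a and CD79b, whose tyrosine motifs are phosphorylated by Src family kinases such as BLK and LYN and then bind SYK. Complement receptor 2 amplifies the signal, and CD22 dampens it through phosphatases. EBF1 and PAX5 are the transcription factors that establish and hold B-cell identity, and both are switched off when a B cell becomes an antibody-secreting plasma cell. In spleen these genes are known mainly from B cells, which are abundant there, and complement receptor 2 is also found on the stromal follicular dendritic cells.

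Values are FPKM, the fragments counted on each gene after scaling for gene length and for library size. Between 15360815 and 18440913 reads lay on genes in each library, and 1 read on a gene of 1 kb was worth 0.0517 to 0.0659 FPKM. Of the 9 genes, 8 reached 1 FPKM in 3 or more libraries and were tested, as were 12746 genes in all. Ebf1 reached 1 FPKM in 2 libraries and is given as values without a test. T-mDC 2 and T-mDC 3 were close to each other. Over genes with 20 to 200 reads in the pair, their chi-square per gene was 1.8, where other pairs within a group had 5.45 to 19. Hemoglobin genes took 3.82% and 3.0% of the reads of T-DC 2 and T-DC 3 and at most 0.405% elsewhere. Of 10 DC markers, the 3 groups had summed levels of 760 to 893 FPKM (N-mDCs), 193 to 725 FPKM (T-DCs) and 784 to 894 FPKM (T-mDCs), and none of the 10 was at 0 in any library.

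The sequences just upstream of the genes are given first, for 4 genes that cover the receptor chain (Cd79a), the inhibitory and complement receptors (Cd22, Cr2) and Fcrla, so that the members can be compared at the level of their start sites. Promoter windows from RefSeq (GRCm38.p6) matched 6 of the 9 genes, with 7 windows in all. Each sequence is the 250 bases before a RefSeq start site, printed 5′ to 3′ on the gene's strand. Capitals mark matches to any of 5 short motifs, searched on both strands: CCCNNGGG (the core bound by EBF1), ATTTGCAT (the octamer), AGGAAGT (a site of ETS factors), CANNTG (the E-box) and TATAAA. The windows are chr7:24897247-24897496 (Cd79a, plus strand), chr7:30879029-30879278 (Cd22, minus strand), chr1:195176720-195176969 (Cr2, minus strand) and chr1:170927584-170927833 (Fcrla, minus strand). GENCODE M21 places the start of the Cd79a gene at 24897381 and the end of the Cd22 gene at 30880342, so these windows lie partly (Cd79a) or wholly (Cd22) inside the gene as drawn there.
Cd79a: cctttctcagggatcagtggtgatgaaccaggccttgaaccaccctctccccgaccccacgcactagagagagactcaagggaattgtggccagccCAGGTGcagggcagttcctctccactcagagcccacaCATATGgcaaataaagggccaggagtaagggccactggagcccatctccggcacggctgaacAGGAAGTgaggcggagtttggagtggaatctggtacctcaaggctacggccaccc
Cd22: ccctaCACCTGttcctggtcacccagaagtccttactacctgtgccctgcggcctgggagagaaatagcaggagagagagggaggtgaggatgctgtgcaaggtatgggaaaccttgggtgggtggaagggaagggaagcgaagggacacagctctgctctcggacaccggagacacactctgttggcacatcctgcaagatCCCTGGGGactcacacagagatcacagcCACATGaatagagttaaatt
Cr2: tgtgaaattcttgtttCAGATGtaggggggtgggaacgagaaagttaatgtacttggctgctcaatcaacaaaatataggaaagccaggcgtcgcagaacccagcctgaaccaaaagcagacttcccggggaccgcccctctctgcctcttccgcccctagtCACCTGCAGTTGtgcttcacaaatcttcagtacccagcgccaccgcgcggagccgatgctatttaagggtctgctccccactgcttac
Fcrla: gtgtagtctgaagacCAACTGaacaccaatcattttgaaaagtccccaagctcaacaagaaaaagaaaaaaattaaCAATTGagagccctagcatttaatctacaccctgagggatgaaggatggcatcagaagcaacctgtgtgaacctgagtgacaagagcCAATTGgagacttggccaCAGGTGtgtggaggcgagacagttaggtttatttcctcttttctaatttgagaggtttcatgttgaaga
The Cd79a window held AGGAAGT at -55 and E-boxes at -154 and -117 from the start site. The Cd22 window held CCCTGGGG, a match to the EBF1 core, at -48 and E-boxes at -245 and -20. The Cr2 window held E-boxes at -234, -88 and -82, and the Fcrla window held E-boxes at -235, -174, -87 and -69. Over all 32851 windows of this length, 11.8% held the EBF1 core, 1.60% the octamer, 7.69% AGGAAGT, 66.2% an E-box and 12.4% TATAAA. A match to such short letters is a description of the sequence only. Sites that differ from these letters, including those of EBF1, were not searched for. A window without a match, such as that of Cd79a for the EBF1 core, therefore need not lack a site.

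The 9 genes were at their highest in N-mDCs, where Cd79a, Cd79b, Cd22 and Fcrla were the 4 leading members in each library. In T-DCs all 9 were below the N-mDC range, by group means that ran from 2.39-fold lower for Cd79b to 123-fold lower for Cr2. T-mDCs lay between these groups for all 9 genes by their means, but T-mDC 1 stood well above T-mDC 2 and T-mDC 3. This library also stood apart in markers of other cell types, as given below. In these bulk libraries, fewer B-lineage cells and less RNA per cell cannot be told apart.

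**Figure D1:**
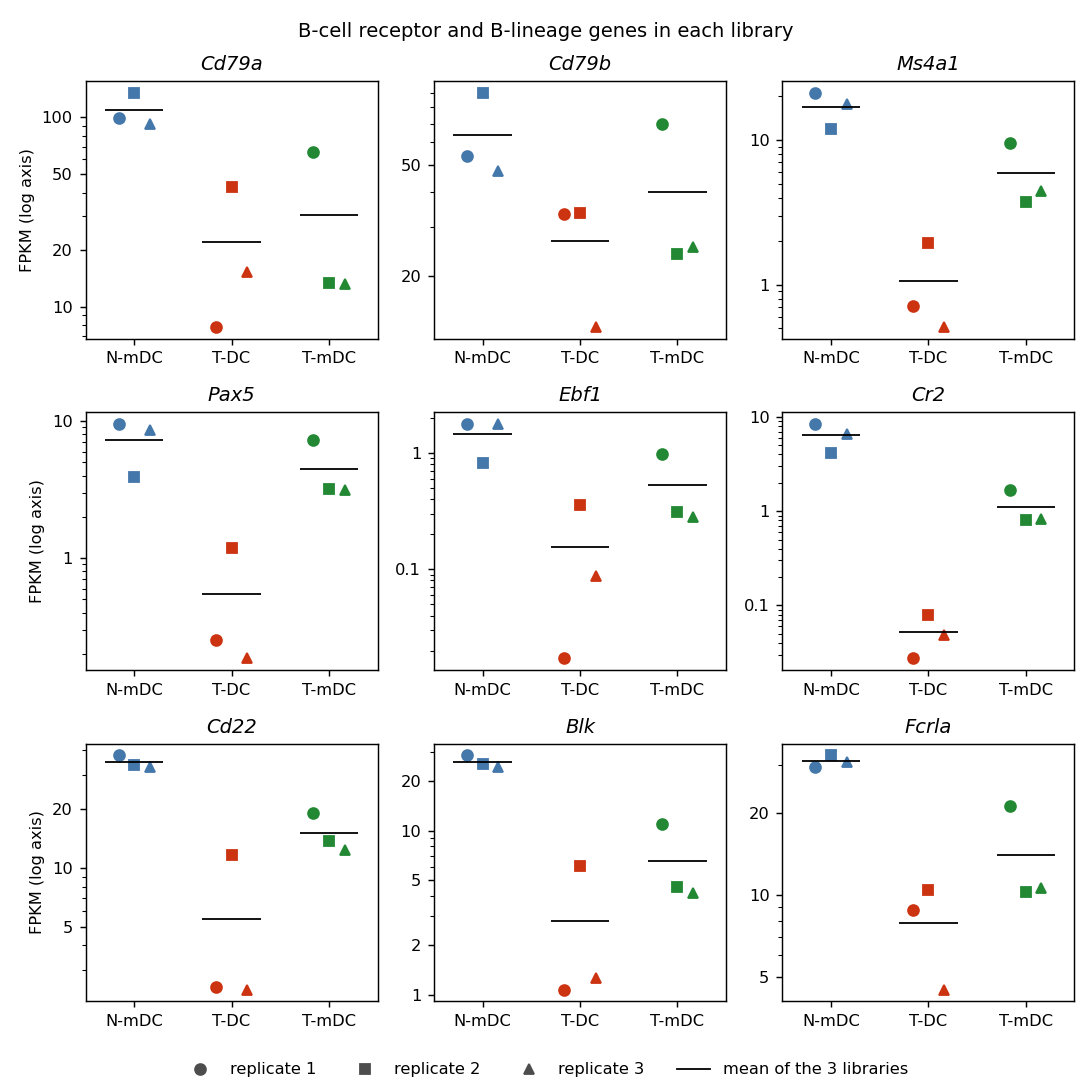
FPKM (log axis) of the 9 genes in each of the 9 libraries, 1 panel per gene, with the replicate number as symbol and the mean of 3 libraries as a line. Each T-DC library lies below each N-mDC library in all 9 panels, and T-mDC replicate 1 lies above replicates 2 and 3 in all 9.

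Cd79a, a signalling chain of the receptor (ENSMUSG00000003379, chr7:24897381-24902197, plus strand, GRCm38), had the highest level of the 9 members in the N-mDC libraries. It was there at 99.4, 135 and 92.5 FPKM, at 7.82, 42.7 and 15.2 FPKM in T-DCs 1 to 3, and at 65.2, 13.4 and 13.1 FPKM in T-mDCs 1 to 3. T-DC 2 and T-mDC 1 were the high libraries of their groups, T-DCs and T-mDCs overlapped, and both lay below N-mDCs. Cd79a was lower by 4.97-fold in the means of T-DCs against N-mDCs (log2 change of FPKM + 1, -2.56 ± 0.70 (SE), limma adjusted p = 0.0402). This call was close to the threshold. It was lost, with adjusted p from 0.0501 to 0.108, in the fits without any 1 of the 3 N-mDC libraries, T-DC 1, T-DC 3, T-mDC 2 or T-mDC 3, as it was with no filter on low values (adjusted p = 0.0915), with T-mDC 2 and T-mDC 3 averaged (0.0547) and with a replicate block (0.0704). In all, 11 of 21 alternatives kept it. Cd79a in T-mDCs was 30.6 ± 30.0 FPKM (SD, n = 3) and the difference from T-DCs did not pass the test (-0.37 ± 0.70, limma adjusted p = 0.752). Without T-DC 1 the difference was 0.16 and without T-mDC 1 it was 0.37, both in the other direction and neither past the threshold.

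Cd79b, the partner chain (ENSMUSG00000040592, chr11:106311341-106314762, minus strand), kept the most of its N-mDC level in T-DCs. It was at 53.6, 90.3 and 47.5 FPKM in the N-mDC libraries, 33.2, 33.6 and 13.1 FPKM in the T-DC libraries and 70.0, 23.9 and 25.4 FPKM in the T-mDC libraries. The T-DC libraries were all below the lowest N-mDC library, and T-mDCs overlapped both groups. Cd79b did not pass the test between T-DCs and N-mDCs (-1.28 ± 0.50, limma adjusted p = 0.107), between T-DCs and T-mDCs (-0.49 ± 0.50, limma adjusted p = 0.538) or between T-mDCs and N-mDCs (-0.79 ± 0.50, limma adjusted p = 0.466).

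The chains that pair in the receptor were not in the same ratio across the groups. The FPKM ratio of Cd79b to Cd79a was 0.539, 0.670 and 0.513 in N-mDCs, 4.25, 0.786 and 0.864 in T-DCs and 1.07, 1.79 and 1.93 in T-mDCs. All 6 leukemic libraries lay above the 3 N-mDC libraries, and T-DC 1 stood far above the other two T-DC libraries. On the log2 scale the mean ratio was higher by 1.32 in T-DCs and by 1.44 in T-mDCs than in N-mDCs, each with p = 0.1 in a two-sided exact permutation test, the smallest that 3 against 3 libraries allow. The ratio is of per-length levels within a library and was examined after the values were seen. The pDC markers, a list of 12 genes of plasmacytoid DCs, ran in sum from 315 to 644 FPKM (N-mDCs), from 183 to 312 FPKM (T-DCs, with T-DC 1 highest) and from 135 to 212 FPKM (T-mDCs). Their part in the ratio was not tested.

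Blk, a Src family kinase of B cells (ENSMUSG00000014453, chr14:63372836-63417037, minus strand), was even in N-mDCs, at 28.8, 25.4 and 24.5 FPKM. It was at 1.08, 6.10 and 1.27 FPKM in T-DCs, of which T-DC 2 was the high one, and at 10.9, 4.56 and 4.19 FPKM in T-mDCs. Both leukemic groups lay below N-mDCs and they overlapped with each other. Blk was 9.32-fold lower in the means of T-DCs against N-mDCs (-3.08 ± 0.49, limma adjusted p = 0.00529). T-DCs and T-mDCs did not pass the test (-1.12 ± 0.49, limma adjusted p = 0.162), but did so without T-DC 2 (-1.69, adjusted p = 0.0338). T-mDCs against N-mDCs did not pass either (-1.96 ± 0.49, limma adjusted p = 0.0881), and passed at adjusted p = 0.0399 and 0.0356 when T-DC 1 or T-DC 2, which share the estimate of the spread, were left out.

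Cd22, the inhibitory sialic acid receptor (ENSMUSG00000030577, chr7:30865402-30880342, minus strand), was at 37.8, 33.7 and 33.1 FPKM in N-mDCs. It was at 2.46, 11.6 and 2.38 FPKM in T-DCs and at 19.1, 13.8 and 12.3 FPKM in T-mDCs. The 3 groups did not overlap, and T-DC 2 came closest to T-mDCs. The T-DC mean was 6.37-fold lower than the N-mDC mean (-2.76 ± 0.46, limma adjusted p = 0.00662). Between T-DCs and T-mDCs the change was -1.58 ± 0.46 and just missed the threshold (limma adjusted p = 0.0542). Without T-DC 2 it passed (-2.21, adjusted p = 0.00585), as it did with values rescaled to TPM (0.0307), with quantile normalization (0.0351) and with limma voom on whole reads (0.0280). The change between T-mDCs and N-mDCs was -1.18 ± 0.46 (limma adjusted p = 0.247), and without T-DC 2 its adjusted p was 0.0384.

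Cr2, which encodes complement receptors of B cells and follicular dendritic cells (ENSMUSG00000026616, chr1:195136811-195176716, minus strand), had the largest fold difference. It was at 8.42, 4.13 and 6.60 FPKM in N-mDCs, from 539 to 1068 reads. It was at 0.0275, 0.0795 and 0.0487 FPKM in T-DCs, from 4, 10 and 6 reads, and at 1.67, 0.816 and 0.824 FPKM in T-mDCs, from 123 to 255 reads. The 3 groups did not overlap, and the T-DC libraries were near the limit of detection, with exact 95% Poisson intervals of 1.09 to 10.2 reads in T-DC 1 and 4.80 to 18.4 reads in T-DC 2 (counting error only). In the means, N-mDCs were 123-fold and T-mDCs 21.2-fold above T-DCs, and N-mDCs 5.79-fold above T-mDCs.

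On the log2(FPKM + 1) scale, which shrinks changes at such low levels, Cr2 changed by -2.77 ± 0.25 in T-DCs against N-mDCs (limma adjusted p = 0.000696) and by -0.97 ± 0.25 in T-DCs against T-mDCs (limma adjusted p = 0.0371). It was the only member also called lower in T-mDCs against N-mDCs (-1.79 ± 0.25, limma adjusted p = 0.0155). The other tested members were lower there too, without a call. The call against T-mDCs was lost, with adjusted p from 0.0608 to 0.101, without N-mDC 3, T-DC 2, T-DC 3 or any 1 of the T-mDC libraries. The call in T-mDCs against N-mDCs was lost without N-mDC 3 (0.0750), T-mDC 2 (0.0829) or T-mDC 3 (0.0785).

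Ms4a1 encodes the B-cell surface protein CD20 (ENSMUSG00000024673, chr19:11249675-11266241, minus strand). It was at 21.2, 11.8 and 17.7 FPKM in the N-mDC libraries, 0.713, 1.94 and 0.511 FPKM in the T-DC libraries and 9.53, 3.72 and 4.42 FPKM in the T-mDC libraries. The 3 groups did not overlap. T-DCs expressed lower levels than N-mDCs, 16-fold in the means (-3.15 ± 0.38, limma adjusted p = 0.00171), and than T-mDCs, 5.59-fold in the means (-1.72 ± 0.38, limma adjusted p = 0.0204). The call against T-mDCs was lost without T-DC 3 (adjusted p = 0.0654) or T-mDC 3 (0.0618). T-mDCs against N-mDCs did not pass (-1.43 ± 0.38, limma adjusted p = 0.09997), and passed without T-mDC 1 (-1.79, adjusted p = 0.0463). Cd79a was called in the same fit (-2.93, adjusted p = 0.0479).

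Pax5, a transcription factor that holds B-cell identity (ENSMUSG00000014030, chr4:44524757-44710487, minus strand), separated T-DCs from both other groups. It was at 9.53, 3.94 and 8.56 FPKM in the N-mDC libraries, 0.252, 1.20 and 0.186 FPKM in the T-DC libraries and 7.23, 3.17 and 3.12 FPKM in the T-mDC libraries. N-mDCs and T-mDCs overlapped, with N-mDC 2 the low library of its group, and every T-DC library was lower. T-DCs expressed lower levels than N-mDCs, 13.5-fold in the means (-2.42 ± 0.40, limma adjusted p = 0.00626), and than T-mDCs, 8.28-fold in the means (-1.81 ± 0.40, limma adjusted p = 0.0208). The call against T-mDCs was lost without T-DC 3 (0.0668), T-mDC 2 (0.0576) or T-mDC 3 (0.0575). The change between T-mDCs and N-mDCs did not pass the test (-0.60 ± 0.40, limma adjusted p = 0.486).

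Ebf1, the factor that acts upstream of Pax5 (ENSMUSG00000057098, chr11:44617317-45008091, plus strand), was the lowest member in N-mDCs and T-mDCs. N-mDCs had 1.75, 0.821 and 1.77 FPKM, and T-mDCs had 0.983, 0.313 and 0.279 FPKM. In T-DCs it was at 0.0172, 0.357 and 0.0878 FPKM, from 3, 54 and 13 reads. T-DCs lay below N-mDCs and overlapped T-mDCs, again with T-DC 2 highest. The 3 reads in T-DC 1 had an exact 95% Poisson interval of 0.619 to 8.77 reads.

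Fcrla encodes an intracellular Fc receptor-like protein of B cells (ENSMUSG00000038421, chr1:170917576-170927583, minus strand). It was at 29.5, 32.6 and 30.7 FPKM in the N-mDC libraries, 8.77, 10.4 and 4.49 FPKM in the T-DC libraries and 21.1, 10.2 and 10.6 FPKM in the T-mDC libraries. N-mDCs lay above both leukemic groups, and these overlapped. T-DCs expressed lower levels than N-mDCs, 3.92-fold in the means (-1.91 ± 0.34, limma adjusted p = 0.00796). Fcrla did not pass the test between T-DCs and T-mDCs (-0.75 ± 0.34, limma adjusted p = 0.176) or between T-mDCs and N-mDCs (-1.16 ± 0.34, limma adjusted p = 0.125). The pseudogene Gm2962 lies within Fcrla on the same strand, at 2.77 to 7.06 FPKM, so that reads on the shared stretch could have been counted for either.

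**Figure D2:**
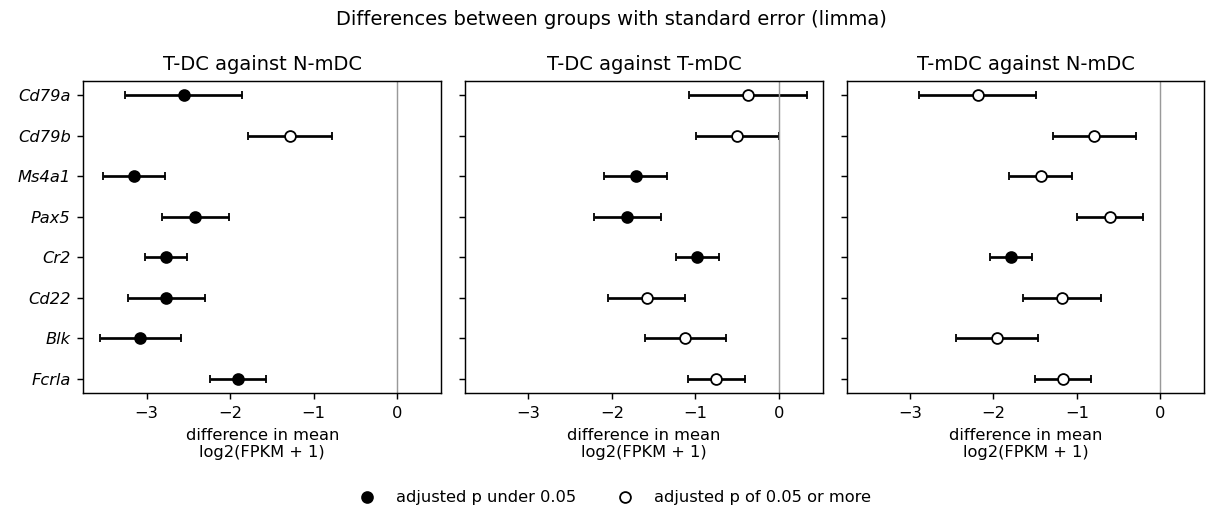
Difference in mean log2(FPKM + 1) between groups for the 8 tested genes, 1 panel per comparison, with the standard error as bars and filled symbols for a limma adjusted p under 0.05. Filled symbols are 7 in T-DC against N-mDC, 3 in T-DC against T-mDC and 1 in T-mDC against N-mDC, and each point lies left of 0.

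Counted together, 7 of the 8 tested members were called lower in T-DCs against N-mDCs, where 10.3% of all tested genes were called lower. The exception was Cd79b. The median change over the 8 members was -2.66, beside 0.05 over all tested genes, and all 9 members had every T-DC library below every N-mDC library, as did 16.4% of all tested genes. Between T-DCs and T-mDCs, 3 of 8 members were called lower (Ms4a1, Pax5 and Cr2), beside 8.79% of all tested genes, with a median of -1.05 beside 0.07. In 4 of 9 members (Ms4a1, Pax5, Cr2 and Cd22) all T-DC libraries were below all T-mDC libraries, as in 18.1% of all tested genes. Between T-mDCs and N-mDCs, Cr2 was the 1 member of 8 called lower, beside 1.52% of all tested genes, with a median of -1.31 beside 0.03, and 6 of 9 members had no overlap, beside 15.7% of all tested genes. Among the 3 groups, 6 of 8 members passed the limma F-test, all but Cd79a (adjusted p = 0.0594) and Cd79b (0.192), beside 18.0% of all tested genes. T-DC libraries enter both T-DC comparisons and N-mDC libraries those against N-mDCs, so the counts are not independent.

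The counts that involve T-mDCs changed with single libraries, as did the share of all genes called. With T-mDC 2 and T-mDC 3 averaged into 1 library, limma called 0 of 8 members in T-DCs against T-mDCs (6 at an unadjusted p under 0.05) and 0 of 8 in T-mDCs against N-mDCs (5 at an unadjusted p under 0.05). In T-DCs against T-mDCs that fit called 4.24% of all tested genes in either direction, beside 14.2% in the fit reported. Ms4a1, Pax5 and Cr2 changed there by -1.89, -1.98 and -1.07. The count between T-DCs and T-mDCs was also 0 without T-DC 3 (4 at an unadjusted p under 0.05) or T-mDC 3 (5), and 1 without T-mDC 2. Of all tested genes, 8.43%, 4.24% and 4.26% were called in these fits. The count between T-mDCs and N-mDCs was 0 without N-mDC 3, T-mDC 2 or T-mDC 3 (5 each at an unadjusted p under 0.05), 2 without T-DC 1, and 3 without T-DC 2 or without T-mDC 1. The count between T-DCs and N-mDCs stayed at 6 or 7 without any 1 library and was 6 with the averaged library.

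The level left in leukemic libraries differed between members. Expressed as a percentage of the N-mDC mean, T-DC 1 kept 52.1% of Cd79b and 28.3% of Fcrla, but between 0.431% (Cr2) and 7.18% (Cd79a) of the other 7. T-DC 2 kept 52.7% of Cd79b, 39.3% of Cd79a, 33.7% of Fcrla and 33.2% of Cd22, but 16.3% of Pax5, 11.5% of Ms4a1 and 1.25% of Cr2. T-DC 3 kept 20.6% of Cd79b, 14.5% of Fcrla and 14.0% of Cd79a, and 0.763% of Cr2. Cr2 was thus the lowest and Cd79b the highest in each T-DC library.

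T-mDCs had another order. T-mDC 2 and T-mDC 3 kept the most of Pax5 (43.2% and 42.5%) and the least of Cd79a (12.3% and 12.1%), with Cr2 at 12.8% and 12.9%. T-mDC 1 kept from 26.1% of Cr2 to 110% of Cd79b and 98.5% of Pax5. The ratio of Pax5 to Cd79a was 0.238 in both T-mDC 2 and T-mDC 3, 0.111 in T-mDC 1, 0.0292 to 0.0959 in N-mDCs and 0.0122 to 0.0323 in T-DCs. Its log2 mean was higher in T-mDCs than in T-DCs by 3.05 and than in N-mDCs by 1.53, each with p = 0.1 (two-sided exact permutation test, the smallest possible with 3 against 3).

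**Figure D3:**
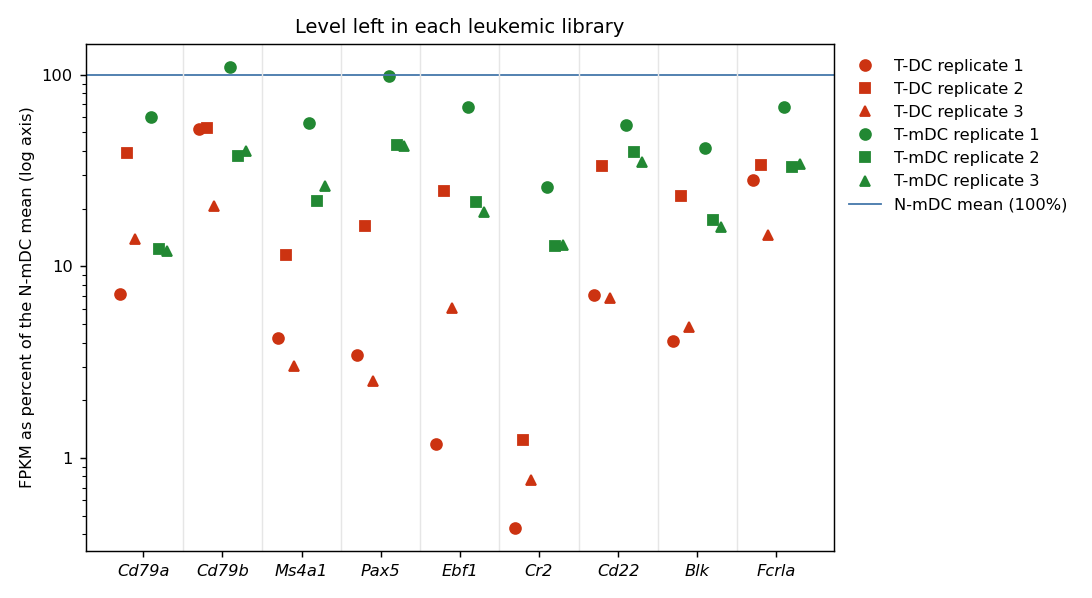
FPKM of the 9 genes in the 6 leukemic libraries as a percentage of the N-mDC mean (log axis), with the N-mDC mean drawn as a line at 100%. T-DC libraries run from 0.431% for Cr2 to 52.7% for Cd79b, and T-mDC libraries from 12.1% for Cd79a to 110% for Cd79b.

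Of 26 other B-lineage genes, 25 were tested. In T-DCs against N-mDCs 12 were lower and 1 was higher, in T-DCs against T-mDCs 6 were lower, and in T-mDCs against N-mDCs 2 were lower (Cd37 and Ralgps2). Of all tested genes, 10.3%, 8.79% and 1.52% were called lower in these comparisons. The medians of the list were -1.14, -0.35 and -0.45.

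Among those 26 genes, the 5 called ones with the largest changes in T-DCs against N-mDCs were H2-Ob (-3.80, limma adjusted p = 0.00106), Siglecg (-3.51, 0.00101), Cxcr5 (-3.04, 0.000333), Fcer2a (-2.69, 0.000743) and Fcmr (-2.63, 0.0458). H2-Ob encodes a chain of the MHCII modulator DO, Siglecg a sialic acid receptor related to CD22, Cxcr5 the receptor that guides B cells into follicles, Fcer2a the IgE receptor CD23 and Fcmr an Fc receptor for IgM. Fcer2a was at 9.14, 4.04 and 5.74 FPKM in the N-mDC libraries, 2.12, 2.56 and 1.79 FPKM in the T-mDC libraries and 0.126, 0 and 0.128 FPKM in the T-DC libraries. Cxcr5 was at 0.0988 to 0.60 FPKM in T-DCs, and at 5.73 to 7.68 FPKM in T-mDCs, against 8.76 to 11.2 FPKM in N-mDCs. Of the 6 called in T-DCs against T-mDCs, Siglecg, Cd200, Cxcr5, H2-Ob and Spib had the largest changes, from -3.11 to -2.46. None of these was called in T-mDCs against N-mDCs. Mean FPKM in N-mDCs and T-mDCs was 41.5 and 32.4 for Siglecg, 6.49 and 16.5 for Cd200 and 57.2 and 61.3 for Spib. It was 9.59 and 6.73 for Cxcr5 and 117 and 49.0 for H2-Ob. Genes of this list need not be restricted to B cells, and the paper has Spib among its pDC signature genes. Which cells gave this RNA was not tested. Siglecg was at 39.3 and 38.5 FPKM in T-mDC 2 and T-mDC 3 and 19.3 FPKM in T-mDC 1, so T-mDC 1 was its low library, where for Cd79a it was the high one.

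The 1 higher gene of that list was Pou2f2, which encodes the octamer-binding factor OCT2 and is not restricted to B cells. It was at 17.3, 15.2 and 17.0 FPKM in the N-mDC libraries, 74.8, 43.2 and 26.0 FPKM in the T-DC libraries and 35.7, 18.8 and 17.6 FPKM in the T-mDC libraries (T-DCs against N-mDCs, 1.36 ± 0.39, limma adjusted p = 0.0454). Every T-DC library was above every N-mDC library, and T-DC 1, in which Pax5 was at 0.252 FPKM, was the highest. Cd24a reached 1192 and 1097 FPKM in T-DC 2 and T-DC 3, the libraries with the most hemoglobin reads, and was at 30.3 to 81.6 FPKM in the other 7. Cd24a is also a known gene of erythroid cells, and its change in T-DCs against N-mDCs did not pass the test (limma adjusted p = 0.196).

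Genes that act downstream of the receptor are shared by many blood cells. Of 22 such genes, all were tested, and 4 were lower in T-DCs against N-mDCs and 3 in T-DCs against T-mDCs, beside 10.3% and 8.79% of all tested genes. In T-mDCs against N-mDCs limma called 0, where 2 had an unadjusted p under 0.05. The 4 lower against N-mDCs were Rasgrp3 (-2.45, limma adjusted p = 0.00328), Malt1 (-2.19, 0.00841), Vav2 (-1.38, 0.0372) and Dapp1 (-1.31, 0.00533). Malt1 acts between the receptor and NF-κB, Rasgrp3 activates Ras, Vav2 is a guanine nucleotide exchange factor and Dapp1 is an adaptor. All but Vav2 were also lower against T-mDCs. Rasgrp3 was at 24.4 and 24.0 FPKM in T-mDC 2 and T-mDC 3 and at 14.4 FPKM in T-mDC 1. The medians of the list, -0.34, -0.15 and -0.12, were smaller in size than those of the members.

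Of 10 genes of early B-cell development, 4 could be tested, and Il7r and Foxo1 were lower in T-DCs, both against N-mDCs (-1.33 and -1.14, limma adjusted p = 0.0119 and 0.0266) and against T-mDCs (-2.05 and -1.02, 0.00256 and 0.0429). Over all tested genes, 10.3% and 8.79% were called lower in these comparisons. The other 2 tested, Dntt and Tcf3, changed upward without a call. Their changes were 0.03 and 0.86 against N-mDCs (limma adjusted p = 0.970 and 0.133) and 1.29 and 0.65 against T-mDCs (0.0892 and 0.270). Il7r encodes the interleukin-7 receptor chain and Foxo1 a transcription factor, and both are also used outside the B lineage. The surrogate light chain genes Vpreb1, Vpreb2 and Igll1, which mark pre-B cells, were at 0 to 0.155 FPKM in the 9 libraries.

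The antibody chains Ighm and Igkc had the same highest library in each group as Cd79a but differed from it between the groups. Ighm, the heavy chain of IgM, was at 562, 3471 and 1225 FPKM in the N-mDC libraries, 446, 3660 and 1298 FPKM in the T-DC libraries and 1700, 306 and 310 FPKM in the T-mDC libraries. Igkc, the constant part of the kappa light chain, was at 880, 8193 and 1789 FPKM in the N-mDC libraries, 523, 7274 and 4103 FPKM in the T-DC libraries and 2730, 134 and 142 FPKM in the T-mDC libraries. N-mDCs and T-DCs overlapped for both, with N-mDC 2 and T-DC 2 the high libraries. The change in T-DCs against N-mDCs was -0.06 ± 0.98 for Ighm and 0.09 ± 1.42 for Igkc (limma adjusted p = 0.975 and 0.971). These intervals are wide, so that a change of several fold in either direction was not detectable.

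Ighd, the heavy chain of IgD found on mature naive B cells, differed from Ighm. It was at 27.5, 16.1 and 15.3 FPKM in the N-mDC libraries, 1.20, 3.16 and 0.693 FPKM in the T-DC libraries and 23.0, 10.3 and 11.4 FPKM in the T-mDC libraries. T-DCs lay below both groups. The change was -3.0 ± 0.41 from N-mDCs (limma adjusted p = 0.00297) and -2.59 ± 0.41 from T-mDCs (limma adjusted p = 0.00580). It was the 1 gene called in each T-DC comparison among 11 tested immunoglobulin constant genes of 12 listed, beside 10.3% (against N-mDCs) and 8.79% (against T-mDCs) of all tested genes called lower. Reads on 268 immunoglobulin genes made up 0.103% to 1.96% of the reads on genes, with T-DC 2 and N-mDC 2 highest.

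The ratio of Ighm to Cd79a put the antibody chain beside its signalling partner in the same library. It was 5.66, 25.8 and 13.2 in N-mDCs, 57.1, 85.6 and 85.5 in T-DCs and 26.1, 22.9 and 23.6 in T-mDCs. The T-DC libraries were above the other 6, and T-mDCs overlapped N-mDCs. On the log2 scale the T-DC mean was higher by 2.59 than that of N-mDCs and by 1.63 than that of T-mDCs, each with p = 0.1, the smallest a two-sided exact permutation test of 3 against 3 can give. In all, 9 such tests were made over 3 ratios chosen with the values known, and none could pass the threshold.

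Of the plasma cell genes, Jchain had the same highest library in each group as Ighm and Cd79a. This gene, which joins secreted IgM and IgA, was at 43.8, 344 and 96.2 FPKM in the N-mDC libraries, 22.3, 426 and 211 FPKM in the T-DC libraries and 93.6, 4.58 and 4.45 FPKM in the T-mDC libraries. Its libraries overlapped between T-DCs and N-mDCs (0.16 ± 1.40, limma adjusted p = 0.948). The 8 plasma cell genes ran in sum from 198 to 666 FPKM (N-mDCs), from 135 to 603 FPKM (T-DCs) and from 77.9 to 272 FPKM (T-mDCs). Of the 8, Irf4 was the 1 called in each T-DC comparison, near the 10.3% (against N-mDCs) and 8.79% (against T-mDCs) of all tested genes called lower. It was lower in T-DCs against N-mDCs (-3.20 ± 0.36, limma adjusted p = 0.00150) and against T-mDCs (-1.63 ± 0.36, 0.0199). Irf4 is a transcription factor of plasma cells and also of DCs. Prdm1 (-1.20, limma adjusted p = 0.0542) and Mzb1 (-1.55, 0.310) were also lower in T-DCs against N-mDCs, without a call. Every T-DC library lay below every N-mDC library for Prdm1, and the libraries overlapped for Mzb1. The other 5 of the 8, with Jchain among them, were higher without a call. The part of plasma cell RNA in the antibody gene levels was not tested.

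**Figure D4:**
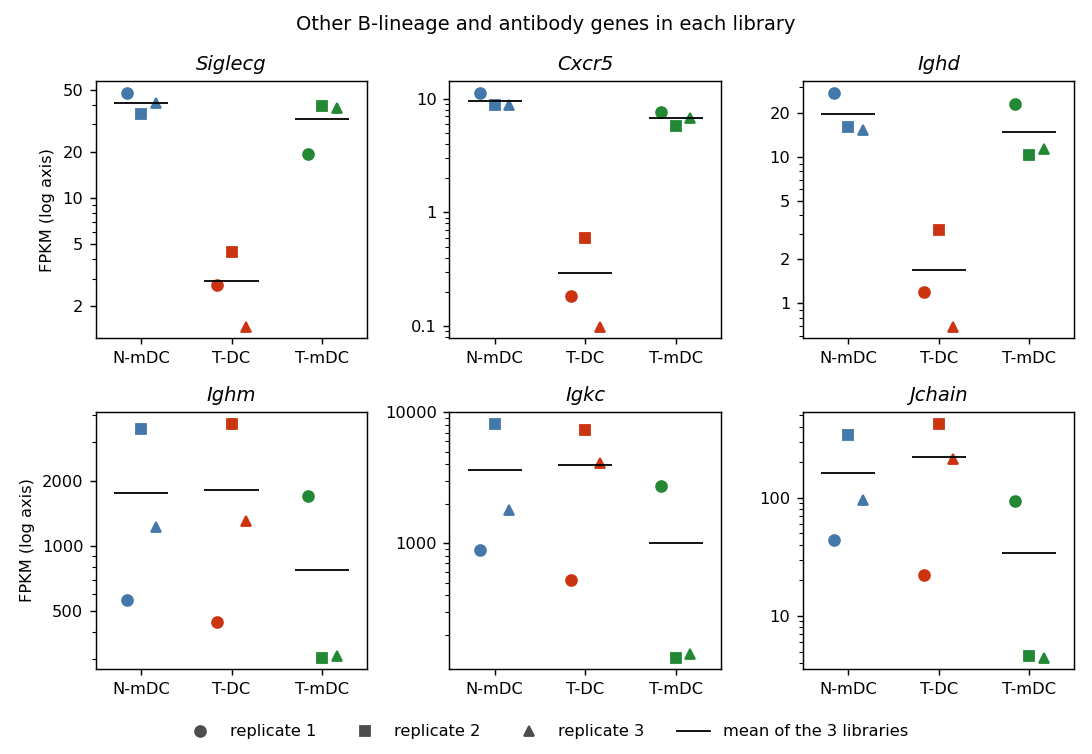
FPKM (log axis) of Siglecg, Cxcr5, Ighd, Ighm, Igkc and Jchain in each library, with the replicate number as symbol and the mean of 3 libraries as a line. T-DC libraries lie below all N-mDC libraries for Siglecg, Cxcr5 and Ighd and overlap them for Ighm, Igkc and Jchain.

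The lists of other cell types moved as follows in the same libraries. DC markers were lower in T-DCs in 7 of 10 genes against N-mDCs and 8 of 10 against T-mDCs, beside 10.3% and 8.79% of all tested genes. pDC markers were lower in 4 of 11 tested genes in T-DCs and in 3 of 11 in T-mDCs against N-mDCs, and T cell markers in 2 of 9 in each, beside 10.3% and 1.52% of all tested genes. The summed T cell marker levels were 25.1 to 60.8 FPKM (N-mDCs), 4.16 to 37.7 FPKM (T-DCs) and 7.64 to 11.4 FPKM (T-mDCs). All 8 erythroid markers were higher in T-DCs than in T-mDCs, where 5.44% of all tested genes were, and 2 of 8 were higher against N-mDCs, where 6.1% of all tested genes were. Their sum was 591 FPKM in T-DC 1 and 57765 and 40498 FPKM in T-DC 2 and T-DC 3. Of 10 macrophage markers limma called 0 in T-DCs against N-mDCs, where 0 had an unadjusted p under 0.05, and 0 against T-mDCs, where 2 had. In T-mDCs against N-mDCs it called 0, where 8 had, and 9 of 10 had every T-mDC library lower, beside 15.7% of all tested genes. In T-mDCs 1 to 3 the summed levels were 1605, 595 and 590 FPKM for macrophage markers and 176, 20.9 and 14.4 FPKM for erythroid markers. They were 212, 138 and 135 FPKM for pDC markers, 7.64, 11.4 and 10.1 FPKM for T cell markers and 784, 894 and 892 FPKM for DC markers. Macrophage markers summed to 3674, 1389 and 872 FPKM in T-DCs 1 to 3 and to 1804, 3689 and 2174 FPKM in N-mDCs 1 to 3. DC markers summed to 725, 346 and 193 FPKM in T-DCs 1 to 3, so T-DC 1 was the highest T-DC library for both lists. T-DC 1, with few erythroid reads, was below T-DC 2 in all 9 members, and T-DC 3 was below T-DC 1 in 5 members (Cd79b, Ms4a1, Pax5, Cd22 and Fcrla) and above it in the other 4. The part of these cell types in the members' levels was not tested.

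The genes whose pattern was most like that of Cd79a over the 9 libraries, by Pearson's r of log2(FPKM + 1) among 12530 genes, were Gimap4 (0.975), Gimap6 (0.974), Gimap3 (0.971) and Cd2 (0.970). The first 3 are lymphocyte GTPase genes and Cd2 encodes an adhesion receptor of T, NK and B cells. Gimap4 was at 19.2, 21.9 and 28.7 FPKM in the N-mDC libraries, 1.31, 9.76 and 1.83 FPKM in the T-DC libraries and 13.7, 2.23 and 3.46 FPKM in the T-mDC libraries, with T-DC 2 and T-mDC 1 high as for Cd79a. For Ebf1 they were Gimap8 (0.976), Gpr55 (0.964), Bcar3 (0.959), Gm10552 (0.948) and Pik3c2b (0.945). Among the members, r with Cd79a ran from 0.731 (Pax5) to 0.938 (Blk), and with Ebf1 from 0.686 (Cd79b) to 0.948 (Ms4a1). The 9 points include the group differences and share library-wide features, and r is given as a description.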

How the data were processed

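RNA-seq libraries (n = 3 a group) of sorted splenic DCs were analysed. The authors deposited FPKM per gene with gene lengths, and the submitters' processing notes name the build mm10. The aligner, counter and strand setting are not given in the sources used here. The product of FPKM and gene length came to whole reads with a single size per library, within 5.59e-05 of a read, and intervals from these reads cover counting error only. Genes that reached 1 FPKM in 3 or more libraries were fitted as log2(FPKM + 1) over all 9 libraries in limma 3.58.1 under R 4.3.3, using lmFit, contrasts and an empirical Bayes step with a variance trend. Benjamini-Hochberg adjustment ran over all 12746 genes, and the threshold was 0.05. Fold changes of means are ratios of mean FPKM. Gene coordinates are those of the deposited table and were the same in GENCODE M21 for all 9 members.

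The members and the gene lists were chosen with earlier results of these data known. Genes named from the lists are Ighm, Ighd and Igkc and up to 5 called genes per list with the largest change. Some genes are not reported here. Jchain, Prdm1, Mzb1, Cd24a, Vpreb1, Vpreb2, Igll1, Dntt and Tcf3 were named after their values were seen. The alternatives tried were other pseudocounts, filters, scalings, variance models, sets of samples, a replicate block, an averaged T-mDC library and leaving out each library.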

Additional observations from a re-analysis of the deposited data

How the results depend on the processing

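The members called lower in T-DCs against N-mDCs kept that direction in every alternative that tested them, with 6 to 8 called, but Cd79a lost its call in 10 of 21. With no filter the count was 7 because Ebf1 was called and Cd79a was not. The 8 came with array weights, where 66.6% of all genes were called, against 16.4% in the fit reported, 5.16% with no filter, 8.39% with only the groups compared and 7.69% to 39.5% when each library was left out (39.5% without T-DC 1). Against T-mDCs, where 3 members were called, the count was 0 with no filter on low values (4 of 9 with an unadjusted p under 0.05) and 0 with T-mDC 2 and T-mDC 3 averaged, and it ranged from 0 to 4 when each library was left out. Of all genes, 14.2% were called there in the fit reported, 4.43% with no filter and 4.24% with the averaged library. When each library was left out, 4.24% to 35.1% were called. With no filter the changes of Ms4a1, Pax5 and Cr2 stayed at -1.72, -1.81 and -0.97. In T-mDCs against N-mDCs, where 1 was called, the count was 0 with a minimum of 5 FPKM in 3 libraries (a filter that Cr2 did not pass, with 5 of 7 at an unadjusted p under 0.05), 0 with the averaged library, 3 with only the groups compared and 8 with array weights, and it ranged from 0 to 3 when each library was left out. With array weights 30.1% of all genes were called in that comparison, and the estimation of the weights stopped before it converged. Directions turned between T-DCs and T-mDCs for Cd79a, Cd79b and Blk. With array weights Cd79a changed by 1.47 (limma adjusted p = 0.000338), Cd79b by 0.33 and Blk by 0.32. That fit called 4 members in this comparison, 3 lower and Cd79a higher, where 77.9% of all genes were called. When each library was left out, the change of Cd79a ran from -0.99 to 0.37, with 0.16 without T-DC 1 and 0.37 without T-mDC 1. Where a value does not show the cause of such a change, the cause was not tested. With no filter, Ebf1 could be tested and fell in T-DCs against N-mDCs (-1.07, limma adjusted p = 0.0495). Values rescaled to TPM moved the median change over all genes to -0.23 between T-DCs and T-mDCs and to 0.23 between T-mDCs and N-mDCs, and limma voom moved the latter to 0.13. Under these, each member's change kept its sign.

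The labels do not say whether libraries with the same replicate number were paired. The deviations of same-numbered libraries from their group means correlated at -0.475 to 0.269, and those of differently numbered libraries at -0.361 to 0.427. With 3 libraries a group, which also differ in other cell types, these correlations cannot decide the pairing. With a replicate block, 6 members were called in T-DCs against N-mDCs (Cd79a was lost, adjusted p = 0.0704), 3 in T-DCs against T-mDCs, 1 in T-mDCs against N-mDCs and 6 among the groups. Depth limits Cr2 and Ebf1 most, with 20 and 70 reads in all T-DC libraries together.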
